A study of Homo sapiens with 28 samples.

Results

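Antisense peaks inside gene bodies are N6-methyladenosine (m6A) peaks on the strand opposite to the protein-coding gene that they lie in. A peak was counted as antisense when its summit lay in a protein-coding gene annotated on the other strand, in no annotated gene on its own strand, and not from 1000 bases upstream to 100 bases downstream of any transcript start on either strand. On chromosomes 1 to 22 and X, 23573 of 495694 peaks (4.76%) in 14 peak lists met this rule. When overlapping peaks of all lists were merged strand by strand, 5317 of 86263 regions (6.16%) were antisense, meaning that at least 50% of their summits were. They lay in 2782 protein-coding genes, called host genes here, of which 1687 held 1 antisense region and 45 held 10 or more.

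The peaks came from m6A immunoprecipitation and sequencing (MeRIP-seq) of the chromatin fraction of cells after depletion of ribosomal RNA (chromatin-associated RNA, caRNA). The groups were HepG2 WT (2 libraries), K562 WT (2), K562 Control (2), K562 RBFOX2 KD (2), NB4 Control (3) and NB4 RBFOX2 KD (3). HepG2 is a hepatoma line, K562 a myelogenous leukaemia line and NB4 a promyelocytic leukaemia line. WT cells were unmodified, while Control and KD cells both carried a short hairpin RNA, which in KD cells was directed against RBFOX2, a splicing regulator that the study examined as an m6A-binding protein on chromatin. The 14 matching input libraries are not analysed here. Peak lists give no RBFOX2 level, so the knockdown itself could not be checked. The methods of the study call the replicates biological, but the labels do not say whether they were separate cultures, and the p-values below measure the spread between these libraries.

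The lists held 22635 to 44043 peaks each, and about 10800000 to 30000000 reads per library were recovered from the fold and p-value of the peaks. By this estimate NB4 KD libraries were deeper than NB4 Control libraries, at 16800000 to 21900000 against 10800000 to 15600000 reads. The reads of HepG2 WT 1 and 2 and of NB4 Control 3 appear to be rescaled, however, so their own depth is not known. NB4 Control 1 and 2, at 10800000 and 14100000 reads, lay below every NB4 KD library. In K562 the Control libraries had 14800000 and 19500000 reads and the KD libraries 12600000 and 16400000 reads.

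RNA from the strand opposite to a gene can come from an antisense gene of its own, from divergent or cryptic starts within the gene, or from transcription that runs on past the end of a neighbouring gene on that strand. Such RNA is mostly unspliced and short-lived, and it is best seen in the chromatin fraction. In nuclear RNA m6A is placed during transcription by the METTL3 and METTL14 methyltransferase, at the A of the consensus DRACH (D is A, G or U; R is A or G; H is A, C or U).

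Sequence windows around the strongest antisense peaks are printed below. Only the strand of the peak was searched for the DRACH at their centre, so the windows alone cannot show which strand carries more. They were read from hg38 on the strand of the peak, and capitals mark the DRACH nearest to the strongest summit. The first 6 belong to the regions with the highest rank among those listed in all 14 libraries, and the last 4 lead the regions restricted by cell line. T stands for U.
TPPP antisense, chr5:667651-667731, plus strand: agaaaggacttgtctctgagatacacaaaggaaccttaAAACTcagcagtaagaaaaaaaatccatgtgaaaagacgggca
ZNF446 antisense, chr19:58479318-58479398, minus strand: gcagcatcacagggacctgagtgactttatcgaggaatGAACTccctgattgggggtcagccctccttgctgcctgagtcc
IFT140 antisense, chr16:1511231-1511311, plus strand: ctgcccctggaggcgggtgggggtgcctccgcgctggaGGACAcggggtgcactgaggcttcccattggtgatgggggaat
SPDYE6 antisense, chr7:102348800-102348880, plus strand: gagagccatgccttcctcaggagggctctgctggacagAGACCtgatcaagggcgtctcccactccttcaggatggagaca
KIF7 antisense, chr15:89631809-89631889, plus strand: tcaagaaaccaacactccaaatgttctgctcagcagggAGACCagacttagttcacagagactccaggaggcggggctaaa
SELENOO antisense, chr22:50214919-50214999, minus strand: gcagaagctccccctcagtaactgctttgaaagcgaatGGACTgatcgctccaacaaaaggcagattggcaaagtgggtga
FGA antisense (HepG2), chr4:154586703-154586783, plus strand: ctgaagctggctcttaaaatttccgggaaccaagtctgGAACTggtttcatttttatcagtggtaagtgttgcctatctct
WDR37 antisense (K562), chr10:1156114-1156194, minus strand: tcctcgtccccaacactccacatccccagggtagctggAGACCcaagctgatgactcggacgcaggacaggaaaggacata
AHRR antisense (NB4), chr5:394471-394551, minus strand: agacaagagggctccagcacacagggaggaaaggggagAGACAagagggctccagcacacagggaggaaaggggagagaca
SPN antisense (K562 and NB4), chr16:29664302-29664382, minus strand: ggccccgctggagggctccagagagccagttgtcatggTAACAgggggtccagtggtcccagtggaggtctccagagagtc

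In the first 6 regions, more DRACH motifs lay within 75 bases of the strongest summit on the strand of the peak than on the strand of the host gene. The counts were 8 against 1 for TPPP, 4 against 3 for ZNF446, 1 against 0 for IFT140, 5 against 0 for SPDYE6, 6 against 3 for KIF7 and 5 against 1 for SELENOO. The order was turned round for FGA, at 3 against 5, and for SPN, at 3 against 8. Both of these lay opposite to coding exons, and in every library that listed them a peak on the host strand overlapped them. The order was not turned round for WDR37, at 7 against 3, although such a peak overlapped it in 4 of 6 libraries. AHRR, overlapped in none, had 4 against 0. Among the first 6 regions, such a peak overlapped SPDYE6 in 12 of 14 libraries, TPPP in 4 and SELENOO in 1, and there the order was not turned round. ZNF446, IFT140 and KIF7 were overlapped in none. The AHRR window is a tandem repeat, in which a stretch of 43 bases occurs again within the 81 bases printed, so its reads may be shared between copies.

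Of the 157 antisense regions listed in all 14 libraries, 108 (68.8%) had their strongest summit within 10000 bases downstream of the end of a gene on their own strand, against 38.7% of all antisense regions. The 6 with the highest rank were among them. The TPPP region (chr5:666600-672467), in intron 2 of the gene for a tubulin polymerisation factor, had its strongest summit 523 bases past the end of CEP72, a centrosomal protein gene. ZNF446 (chr19:58478690-58480859, intron 4) lay 187 bases past the end of SLC27A5, a bile acid ligase gene, and IFT140 (chr16:1509682-1512089, intron 30), a gene for intraflagellar transport, lay 808 bases past TELO2. KIF7 (chr15:89629453-89632827, intron 14), a ciliary kinesin gene, lay 788 bases past TICRR, which acts in DNA replication, and SELENOO (chr22:50214760-50215697, intron 5), a selenoprotein gene, lay 2758 bases past TUBGCP6. For SPDYE6 (chr7:102346876-102350116, intron 5) the nearest such end was that of the pseudogene PMS2P12, 9737 bases away. SPDYE6 belongs to a family of near-identical copies, so its reads are uncertain.

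The fold of these summits over the local background was lowest in HepG2 or NB4 and highest in K562 Control or KD. At TPPP it was 6.05 and 7.98 in HepG2 WT, 14.5 and 13.5 in K562 WT, 28.3 and 23.4 in K562 Control, 28.7 and 29.0 in K562 KD, 5.98, 5.14 and 8.11 in NB4 Control and 11.4, 8.65 and 6.28 in NB4 KD. At ZNF446 it was 9.50 and 6.45 in HepG2 WT, 14.6 and 21.3 in K562 WT, 35.1 and 32.5 in K562 Control, 40.6 and 39.1 in K562 KD, 23.9, 12.2 and 14.4 in NB4 Control and 14.5, 16.5 and 15.9 in NB4 KD. Fold values depend on the depth of a library and were not tested between groups. In rank they stayed near the top of every list: the mean percentile of -log10 q over 14 libraries was 98.5 ± 1.55 (SD) for TPPP, 97.3 ± 2.32 for ZNF446, 95.3 ± 2.51 for IFT140, 94.9 ± 4.47 for SPDYE6, 94.6 ± 2.15 for KIF7 and 94.3 ± 2.73 for SELENOO.

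**Figure D1:**
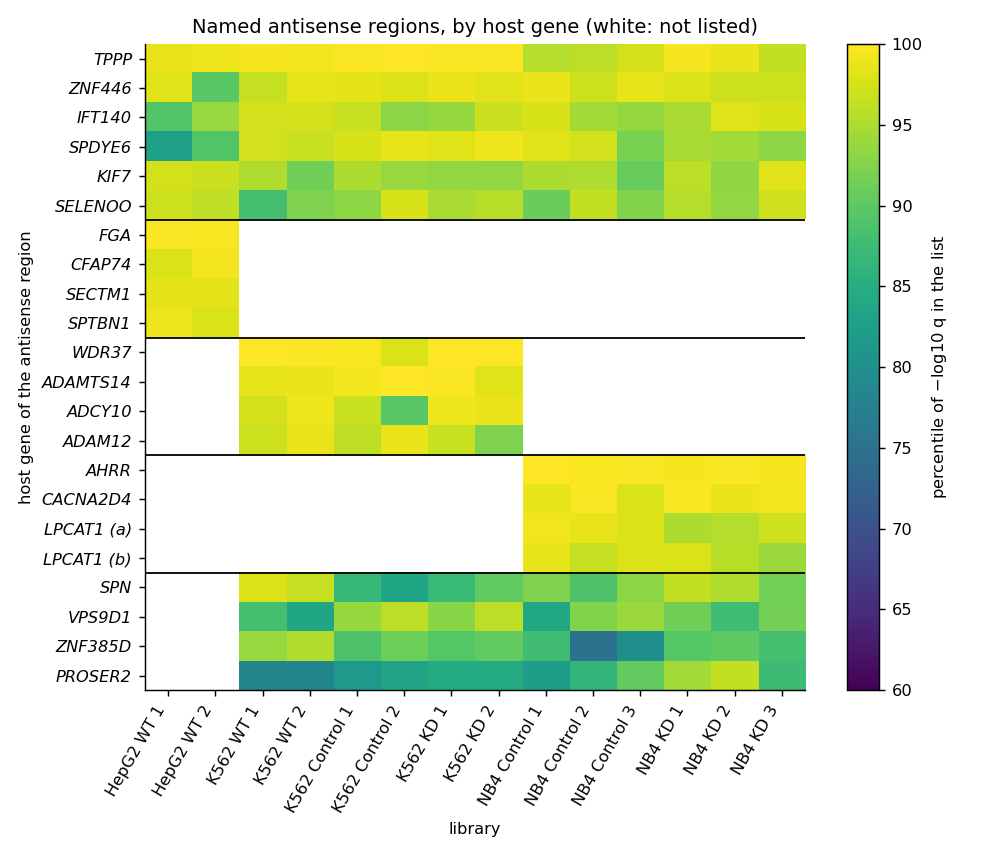
Percentile of -log10 q within its list (colour, from 60 to 100) for the named antisense regions (rows, by host gene) in the 14 libraries (columns), with white where a library did not list the region. From the top, the blocks hold regions listed in all 14 libraries, in HepG2 only, in K562 only, in NB4 only, and in K562 and NB4 but not HepG2. LPCAT1 holds 2 of the regions. Regions were chosen for high ranks, so the colours describe them and test nothing.

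A smaller share of antisense regions than of all regions recurred across libraries and lines. Of the 5317 antisense regions, 157 (2.95%) were listed in all 14 libraries, against 8.92% of all merged regions, and 1401 (26.3%) were listed in 1 library only, against 21.9%. In pairs of libraries of the same line, 43.7 to 74.8% of antisense regions were shared, against 54.4 to 81.0% of all regions, and the antisense share was lower in 31 of 31 pairs. Between lines it was 15.4 to 20.5% against 28.2 to 35.3%, lower in 60 of 60 pairs. These pairs share libraries, so no test was made.

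**Figure D2:**
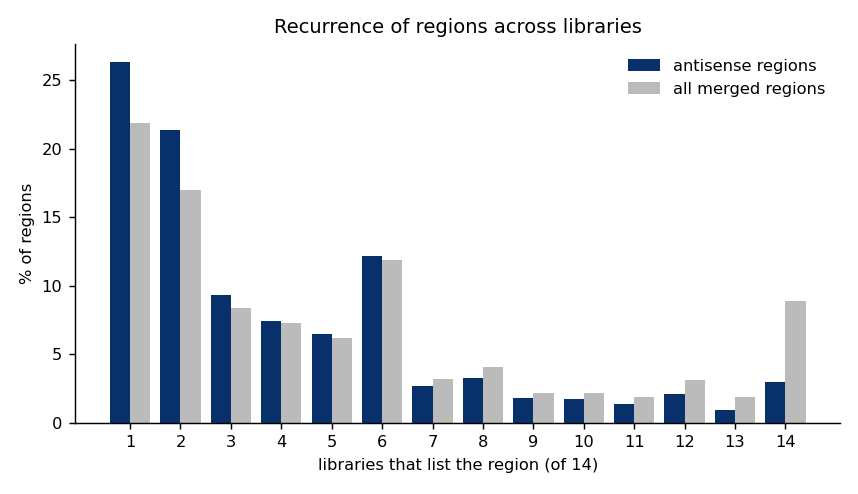
Percent of antisense regions (dark) and of all merged regions (grey) by the number of libraries, from 1 to 14, that list them. Antisense regions exceed all regions at 1 library (26.3 against 21.9%) and fall below them at 14 libraries (2.95 against 8.92%).

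Line-restricted antisense regions were those listed in every library of a line and in none of the others. There were 355 in HepG2 only (6.68% of antisense regions, against 4.6% of all regions), 321 in K562 only (6.04% against 6.33%), 231 in NB4 only (4.34% against 3.38%) and 81 in K562 and NB4 but not HepG2 (1.52% against 2.13%). Only 2 libraries had to agree for HepG2 and 6 each for K562 and NB4, so the counts are not comparable between lines. At equal list sizes, with each list cut to its 22635 strongest peaks, the counts were 406, 146, 148 and 25 in the same order, and 80 regions were listed in all 14 libraries.

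In HepG2 the leading region lay opposite to the last exon of FGA, which encodes a fibrinogen chain made by hepatocytes (chr4:154585979-154586883), with a fold of 11.04 and 14.97 in the 2 libraries. The others in rank order were CFAP74 (intron 18), with 6.79 and 10.5, SECTM1 (3' UTR), with 9.57 and 12.9, and SPTBN1 (exon 19), which encodes a spectrin chain, with 10.0 and 12.6. A peak on the host strand overlapped the region in both libraries for FGA and in 1 library for SECTM1.

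In K562 the leading region lay in WDR37 (chr10:1155481-1157761), at 95.7% of the length of the gene but outside its canonical transcript. Its fold was 29.7 and 20.5 in WT, 47.4 and 21.1 in Control and 52.1 and 61.0 in KD, so that Control overlapped WT and lay below KD. ADAMTS14, a protease gene (last exon), ranged over the 6 K562 libraries from 25.5 to 51.4, ADCY10 (intron 8), a soluble adenylyl cyclase gene, from 12.8 to 39.6 and ADAM12 (intron 3), a metalloprotease gene, from 22.3 to 34.7. A host-strand peak overlapped WDR37 in 4 of 6 libraries, ADAMTS14 in 6, ADAM12 in 1 and ADCY10 in none.

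In NB4 the leading region lay in intron 4 of AHRR, the aryl hydrocarbon receptor repressor (chr5:392591-394818), with a fold of 34.8, 14.5 and 16.8 in Control and 12.0, 13.8 and 13.1 in KD. The Control values all lay above the KD values, with Control 1 far above the rest, but the region was picked among many and this was not tested. CACNA2D4 (intron 26), a calcium channel subunit gene, overlapped between groups, at 18.2, 31.4 and 11.4 against 20.9, 15.1 and 21.4. The last pair of regions lay in LPCAT1, a phospholipid-remodelling acyltransferase gene, 1 opposite to its 3' UTR (4.17 to 8.03) and 1 in intron 6 (11.6 to 15.7).

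Of the regions shared by both leukaemia lines but absent from HepG2 lists, the leading one lay opposite to the coding exon of SPN (CD43, a leukocyte surface sialoprotein). Its fold ran from 16.5 to 28.0 in the K562 libraries and from 10.6 to 16.6 in the NB4 libraries, so that the lines met at the K562 Control 2 value. VPS9D1 (intron 1) lay 1050 bases past the end of VPS9D1-AS1 and PROSER2 (intron 1) lay 2254 bases past the end of PROSER2-AS1, both antisense genes of their hosts, and ZNF385D (intron 2) completed the set. Their fold ranged from 8.96 to 33.6, from 8.41 to 22.1 and from 6.80 to 19.0 over the 12 libraries.

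Most host genes held 1 antisense region, but some held many, and the 5 with the most are described here. LPCAT1 (67.5 kb) held 32 regions, all of them listed only in NB4, and 26, 25 and 20 of them appeared in the Control and 25, 28 and 25 in the KD libraries. GPC6, a glypican gene of 1181 kb, held 25 regions, all listed only in K562, with 21 and 23 in WT, 12 and 13 in Control and 13 and 12 in KD. TBXAS1, the thromboxane synthase gene, held 26, of which 22 were listed only in K562 and 4 also in HepG2. TBC1D5, a gene for a Rab GTPase regulator, held 30, of which 24 were listed only in NB4. There its libraries listed 7, 11 and 18 regions in Control and 25, 24 and 20 in KD, without overlap. Whole NB4 lists separated as well, with 29511 to 33400 peaks in Control and 36697 to 39707 in KD. The region counts were not tested, and the estimated depth was higher in the NB4 KD libraries. GNB1L held 26, with 19 and 18 in K562 WT but 6 and 6 in K562 Control and 6 and 7 in K562 KD. The hairpin-carrying K562 cells thus listed fewer of them than WT cells, whose libraries were also deeper, at 24900000 and 25600000 reads. Whole K562 WT lists were longer too, at 44043 and 43357 peaks against 35577 to 38576 in K562 Control and KD. Adjacent regions of a gene may belong to 1 transcript and are not independent.

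Antisense regions in hepatocyte and myeloid genes were each listed in 1 line. In this paragraph a region counts for a line when 1 or more of its libraries and none of another line listed it, a wider rule than the one above. Of 20 hepatocyte genes, 6 were hosts (30.0%, against 13.9% of all protein-coding genes), with 21 regions that were all listed in HepG2 alone, against 10.4% of all antisense regions. APOB, the apolipoprotein of very low density lipoprotein, held 11 of them and HNF4A, a hepatocyte transcription factor, held 4, and SERPINA1, FGA, FOXA2 and ONECUT1 held the rest. Of 21 myeloid genes, 5 were hosts (23.8%, against 13.9% of all protein-coding genes). Their 5 regions were all listed in NB4 alone, against 23.8% of all antisense regions. RUNX2 and GFI1, both transcription factor genes, and MPO, which encodes the granule enzyme myeloperoxidase, were listed in 6 of 6 NB4 libraries, while AZU1 and CSF1R were each listed in 1 Control and 1 KD library. Of 18 erythroid and megakaryocytic genes, 8 were hosts (44.4%, against 13.9% of all protein-coding genes). Of their 12 regions, 6 were listed in K562 alone (50% against 40.7% of all antisense regions), 4 in NB4 alone (33.3% against 23.8%) and 2 in both. In this split by line, though not in its share of hosts, the list was near the background. Among the K562 regions, KLF1, the erythroid activator of globin genes, and ANK1, a red cell membrane ankyrin, held regions listed in 6 of 6 K562 libraries. This KLF1 region was overlapped by a host-strand peak in all 6, and the weaker ANK1 region had a mean percentile of 6.76. The regions listed in NB4 alone lay in ZFPM1, MYB and SPTB, and SPTB also held a region listed in K562 alone. GATA1 was listed in 6 of 6 K562 libraries and in 2 NB4 KD libraries, and GATA2 in 11 of the 12 K562 and NB4 libraries. The GATA2 region was overlapped by a host-strand peak in all 11 of them and the GATA1 region in 1 of 8. A host-strand peak overlapped 10 of the 21 hepatocyte, 3 of the 5 myeloid and 6 of the 12 erythroid regions, against 28.9% of all antisense regions. Differences in transcription of the host between lines cannot be told apart from differences in methylation in lists of peaks.

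Genes of the m6A and Polycomb machinery were hosts in 7 of 22 (31.8%) and 4 of 11 cases (36.4%), against 13.9% of all protein-coding genes. All 6 lists lay above that background, from 23.8% (myeloid) to 44.4% (erythroid and megakaryocytic), so this was not particular to these genes. The background was not matched for gene length or expression. Of the 9 regions in m6A genes, that of RBM15, an adaptor of the methyltransferase, reached a mean percentile of 79.8 over 9 libraries. The others had 8.21 to 46.7, and 7 of the 9 were overlapped by a host-strand peak. Of the 10 regions in Polycomb repressive complex 2 genes, 7 lay in JARID2, an accessory subunit, and the most recurrent of these was listed in 9 libraries. In the RBFOX family only RBFOX1 was a host, with 1 region in 1 K562 KD library. None of the regions in the 6 lists was lost or gained upon RBFOX2 KD, apart from 1 in ZFPM1 (a GATA cofactor of the erythroid list) that was lost in NB4. Over all antisense regions tested, 1.91 to 3.73% were lost or gained in a line, so these counts say nothing particular about the listed genes.

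Antisense summits were concentrated towards the 3' end of the host. The median summit lay at 74.1% of the length of the host (range over libraries 68.4 to 77.2%), against 49.3% (47.5 to 49.9%) for peaks in introns on the sense strand. The last 10% of the host held 24.4 to 31.3% of antisense summits and 7.10 to 9.42% of sense intron summits, so the ranges did not overlap. Sense intron summits cannot lie in the last exon, however, and of all sense gene-body summits 22.3 to 29.0% lay in the last 10%, a range that overlapped the antisense one. Among antisense summits opposite introns it was 15.5 to 23.03%, above every sense intron value, and among those opposite exons 36.2 to 46.2%. Host genes of antisense peaks were shorter, with a median of 46.6 to 65.5 kb against 98.9 to 127 kb.

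**Figure D3:**
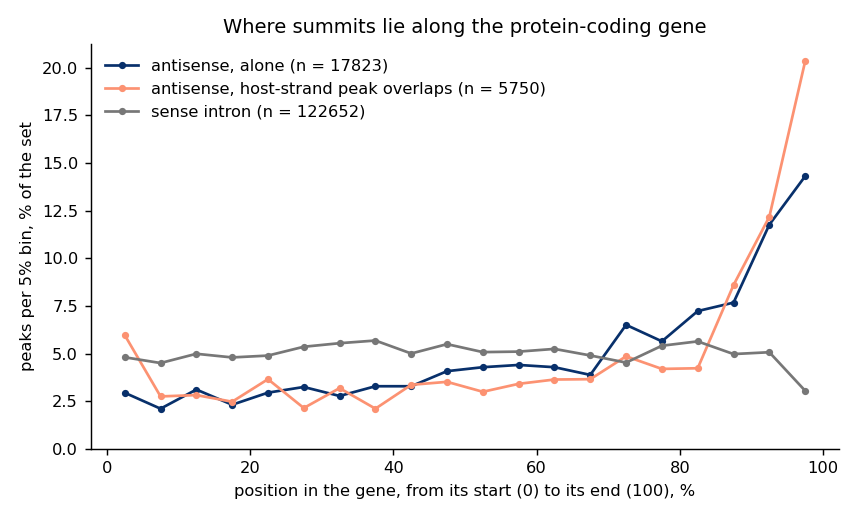
Percent of summits per 5% bin of the length of the gene, from its start at 0 to its end at 100, pooled over 14 libraries, for antisense peaks without (dark) and with (light) an overlapping host-strand peak and for sense intron peaks (grey). Both antisense curves rise in the last bins, while the sense intron curve, which holds no summit in an exon, stays level and falls at the end.

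Many antisense summits lay past the end of a neighbouring gene. In each library 41.0 to 53.4% of antisense summits lay within 10000 bases downstream of the end of a gene on their own strand. Among sense intron summits with no gene on the other strand, 11.0 to 13.4% lay that near to a gene end of the other strand. The antisense share was higher in 14 of 14 libraries, by 29.7 to 40.8 percentage points. Of the summits within this distance 34.5 to 41.7% lay in the last 10% of the host, and of the others 16.1 to 22.1%. Mirrored peaks lay in the last 10% of the host in 32.5% of cases and peaks alone in 27.2% (medians over libraries). The order was turned round for the distance past a gene end, which held 30.8 to 42.3% of mirrored peaks and 44.1 to 57.5% of peaks alone. NB4 libraries had 50.7 to 53.4%, HepG2 46.7 and 47.7%, and K562 41.0 to 45.9%. Whether the RNA in question ran on from the neighbouring gene was not tested.

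A peak on the host strand overlapped 5750 of the 23573 antisense peaks. These are called mirrored peaks, and the other 17823 are called alone. The mirrored share was 32.4 and 37.2% in HepG2 WT, 27.6 and 27.8% in K562 WT, 23.6 and 32.5% in K562 Control, 24.1 and 23.3% in K562 KD, 21.4, 23.4 and 20.3% in NB4 Control and 16.8, 15.1 and 17.3% in NB4 KD. HepG2 WT 2 was highest, K562 Control 2 reached the level of HepG2 WT 1 and stood apart from Control 1, and NB4 KD lay below NB4 Control without overlap. Of sense peaks in gene bodies 1.32 to 3.90% were overlapped by a peak on the other strand. In NB4 this share separated too, at 2.22, 2.62 and 1.97% in Control and 1.51, 1.32 and 1.73% in KD. The NB4 difference was thus not particular to antisense peaks. Sense gene-body peaks were far more numerous, with 13573 against 1080 antisense peaks in HepG2 WT 1, so a lower share follows from the counts.

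Mirrored peaks differed from peaks alone in position and sequence. They lay opposite to exons of the host in 75.9 to 93.4% of cases, against 20.3 to 34.0% for peaks alone, and were more GC-rich in 14 of 14 libraries, with a median GC content of 59.9% against 50.9% (means over libraries). Their -log10 q was lower than that of the strongest overlapping host-strand peak in 76.9 to 94.4% of cases. The median ratio of their read pileup to that of this peak lay between 0.154 and 0.336. In rank the median mirrored peak was below the median peak alone in 11 of 14 libraries and above it in 3. Whether reads of the host strand were assigned to the opposite strand at these sites was not tested.

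The DRACH consensus followed the strand of the peak when it stood alone and the strand of the host when it was mirrored. Around summits alone, 29.2 DRACH per kb lay within 100 bases on the strand of the peak, against 21.4 per kb at 300 to 500 bases and 11.7 per kb on the host strand. Around mirrored summits the densities were 14.3 per kb on the strand of the peak and 21.2 per kb on the host strand. Sense intron summits had 28.7 and 12.2 per kb on their own and the other strand, close to the values for peaks alone. Own-strand motifs outnumbered host-strand motifs at peaks alone in 14 of 14 libraries and fell below them at mirrored peaks in 14 of 14.

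**Figure D4:**
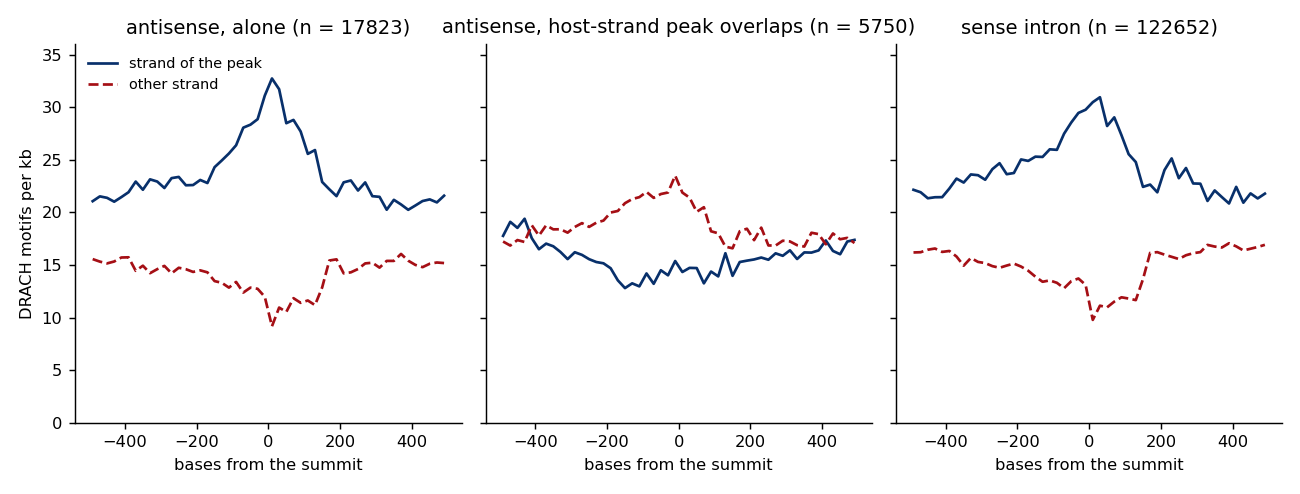
DRACH motifs per kb against the distance from the summit (up to 500 bases to either side), on the strand of the peak (solid) and on the other strand (dashed), pooled over 14 libraries, for 17823 antisense peaks alone, 5750 mirrored antisense peaks and 122652 sense intron peaks. The solid line peaks at the summit for peaks alone and for sense intron peaks, whereas the dashed line does so for mirrored peaks.

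Because DRACH is short, it occurred in most windows of 75 bases to either side of a summit, namely in 91.3 to 96.1% of antisense windows per library and in 94.6 to 98.4% of the windows of all peaks. The excess over windows 300 bases to either side was 2.24 ± 0.73 percentage points (mean ± SD over 14 libraries) for antisense peaks, 4.07 ± 0.50 for those alone, -3.22 ± 2.05 for mirrored ones and 2.33 ± 1.04 for sense intron peaks. Libraries of a line share regions, so no test was made. Of the motifs tied to RBFOX2, UGCAUG lay in 2.41 to 3.96% of antisense windows and in 3.40 to 3.98% of windows of all peaks, and its excess over flanking windows was -0.16 ± 0.65 points. AGAUG lay in 19.5 to 24.6% of antisense windows and in 20.8 to 25.1% of windows of all peaks. Its excess over flanking windows was 3.99 ± 1.71 points in antisense peaks and split by line. It ran from 2.13 to 3.10 points in HepG2 and K562 libraries and from 4.71 to 7.18 in NB4 libraries. This excess was not computed for other peaks. The motifs were searched on the strand of the peak, where a UGCAUG can follow an AGAUG with the letters UG shared.

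The median fold of antisense peaks was 3.85 to 6.93 per library, against 3.57 to 7.21 for sense intron peaks. It exceeded that of sense intron peaks in 10 of 14 libraries, and the exceptions were all the K562 Control and K562 KD libraries. In rank, the median antisense peak sat at the 36.2 to 42.2 percentile of -log10 q, lower than the median sense intron peak in 10 of 14 libraries. Median GC content was 48.3 to 57.6% and was higher than at sense intron peaks in 14 of 14 libraries.

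The share of antisense peaks lay between 4.46 and 5.08% in WT and Control libraries. It was 4.77 and 4.80% in HepG2 WT, 4.88 and 4.96% in K562 WT, 5.00 and 4.80% in K562 Control and 4.72, 5.08 and 4.46% in NB4 Control. K562 WT exceeded HepG2 WT by 0.14 percentage points (exact permutation test, two-sided, p = 0.333, the smallest that 2 against 2 allows). K562 Control differed from K562 WT by -0.02 points (exact permutation p = 1) and NB4 Control from K562 Control by -0.15 points (exact permutation p = 0.5). All 3 signs turned at equal list sizes, where the differences were -1.19, 0.17 and 0.54 points, so no order of the lines can be given.

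**Figure D5:**
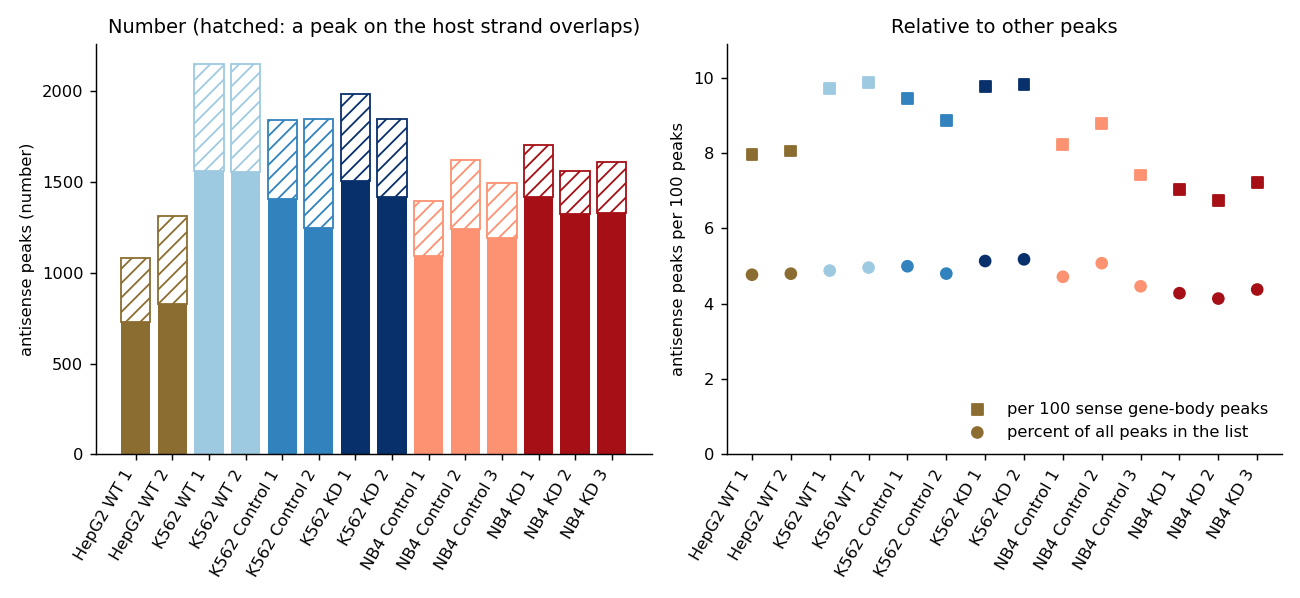
Left, number of antisense peaks per library, with the mirrored peaks hatched on top of the peaks alone, and colours for the 6 groups. Right, antisense peaks as a percent of all peaks of the list (circles) and per 100 sense gene-body peaks (squares). In NB4 both ratios are lower in the 3 KD libraries than in the 3 Control libraries, while in K562 they are higher in the 2 KD libraries.

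Upon RBFOX2 KD, the share of antisense peaks was above Control in the K562 lists and below it in the NB4 lists. In K562 it was 5.00 and 4.80% in Control and 5.14 and 5.18% in KD, a mean difference of 0.26 points without overlap. In NB4 it was 4.72, 5.08 and 4.46% in Control and 4.28, 4.14 and 4.38% in KD, a mean difference of -0.49 points, again without overlap. Neither line could pass a threshold of 0.05 by itself: the exact permutation p, two-sided, was 0.333 in K562 and 0.1 in NB4, the smallest that 2 against 2 and 3 against 3 allow. With labels exchanged within lines, the mean change over both lines was -0.11 points (exact permutation p = 0.517, adjusted p = 0.533 over 4 measures).

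The difference between the lines was tested itself. The K562 change exceeded the NB4 change by 0.75 points (exact permutation p = 0.0167, two-sided, the smallest that the design allows, adjusted p = 0.0333 over 4 measures). Thinning the called peaks to equal depth within a line removed too few of them to test depth (the regions tested went from 46038 to 45917 in K562 and from 48016 to 47741 in NB4). When thinned peaks were also held to a -log10 p of at least 20, a setting chosen after seeing the data, it was 1.15 points (exact permutation p = 0.0167). Without mirrored peaks it was 0.56 points and no longer passed (exact permutation p = 0.05).

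The opposite directions lay in the ratio more than in the number of antisense peaks. In NB4 the number was 1392, 1620 and 1491 in Control and 1700, 1557 and 1607 in KD, overlapping between groups, while sense gene-body peaks went from 16916 to 20093 in Control to 22249 to 24194 in KD. Antisense peaks per 100 sense gene-body peaks were 8.23, 8.79 and 7.42 in NB4 Control and 7.03, 6.74 and 7.22 in NB4 KD, all lower. In K562 the number was 1841 and 1847 in Control and 1981 and 1843 in KD, and the ratio 9.45 and 8.86 in Control and 9.77 and 9.83 in KD. The K562 change of this ratio exceeded the NB4 change by 1.79 per 100 (exact permutation p = 0.0167, two-sided, adjusted p = 0.0333). For the number itself the difference between lines did not pass the test (-0.06 on the log2 scale, exact permutation p = 0.583, adjusted p = 0.778), and over both lines it was higher by 0.08 on the log2 scale upon KD (exact permutation p = 0.133, adjusted p = 0.533).

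For peaks alone the number was higher in every KD library than the Control mean of its line. In K562 there were 1406 and 1246 in Control and 1503 and 1414 in KD, and in NB4 there were 1094, 1241 and 1189 in Control and 1414, 1322 and 1329 in KD, without overlap in either line. As a share of all peaks, however, peaks alone were 0.41 points higher in K562 and differed by -0.15 points in NB4, where 0 of 3 KD libraries lay above the Control mean. The mean difference in number was 0.17 on the log2 scale (exact permutation p = 0.0167, two-sided, the smallest possible and not adjusted over settings). The number of all antisense peaks turned to -0.08 at equal list sizes, and NB4 KD libraries had the higher estimated depth. The part of depth in this count was not separated.

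Recovery of a reference set from other libraries overlapped between Control and KD. Of 1732 antisense regions listed in both K562 WT libraries, K562 Control listed 63.0 and 62.2% and K562 KD 66.7 and 61.3%. NB4 Control listed 26.7, 30.7 and 29.3% and NB4 KD 31.5, 29.2 and 30.6%. The mean change over both lines was 1.42 points (exact permutation p = 0.417, adjusted p = 0.533). In each of these libraries recovery was lower than for all K562 WT regions, of which 68.2 to 73.1% were listed in K562 Control or KD and 41.8 to 51.3% in NB4.

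Few antisense regions were lost (listed in every Control and no KD library) or gained (the reverse). In K562, 65 of 2648 (2.45%) were lost and 86 (3.25%) gained, against 1.71% and 1.73% of all regions. In NB4, 45 of 2359 (1.91%) were lost and 88 (3.73%) gained, against 0.619% and 3.53% of all regions. No test was made of these counts, since presence in 2 or 3 libraries gives no error of its own. They moved with the settings: at equal list sizes K562 had 22 lost and 34 gained and NB4 65 lost and 20 gained, so that the balance in NB4 turned round. Without any 1 library of K562 the counts ran from 92 to 376 lost and from 168 to 296 gained, the highest of both without Control 1.

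The lost and gained regions with the highest rank were mostly of middling strength. In K562 the lost ones were KLHL20, a ubiquitin ligase adaptor (exon 3, fold 3.75 and 11.4 in Control), NBPF8 (6.10 and 6.06) and GMPPB (5.12 and 7.05). The gained ones were ZNF215 (6.93 and 7.80 in KD), FGF13 (7.11 and 6.86) and CBFA2T3, a transcriptional corepressor of haematopoiesis (3' UTR, 5.61 and 7.92). KLHL20 and CBFA2T3 were overlapped by host-strand peaks, and NBPF8 has near-identical copies. Except for ZNF215 and FGF13, each was also listed in a library outside the comparison.

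In NB4 the lost regions lay in introns of NPAS1, a neuronal transcription factor gene (fold 11.2, 9.31 and 7.01 in Control), SLC12A7, a potassium chloride cotransporter gene (10.3, 10.2 and 6.02), and PAM, a peptide-amidating enzyme gene (7.51, 7.36 and 5.90). The PAM region was also listed in both HepG2 libraries. The strongest gained region lay in ANKRD7 (chr7:118271389-118272307), outside its canonical transcript, with a fold of 13.5, 13.1 and 13.99 in KD and no listing in the other 11 libraries. A second ANKRD7 region had 9.67, 5.60 and 6.71 and one in PRB2 7.57, 7.27 and 6.16, and these were likewise listed only in NB4 KD.

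Mirrored regions made up 40% of those lost in K562 and 19.8% of those gained, and 33.3% and 7.95% in NB4, against 28.9% of all antisense regions. Of the 2 lines, 1 region was lost in both, 1 was gained in both and 0 went opposite ways. The lost one lay opposite to the single coding exon of JUND, an AP-1 transcription factor gene (chr19:18280432-18280721). Its fold was 4.30 and 2.88 in K562 Control and 5.02, 5.45 and 5.70 in NB4 Control, and a host-strand peak overlapped it in all 5. The gained one lay in intron 4 of PDE4DIP (chr1:148903269-148903528), with 4.10 and 6.43 in K562 KD, 3.75, 3.90 and 2.93 in NB4 KD and 3.05 in K562 WT 2. Both regions ranked low, with a mean percentile of 19.5 for JUND and 11.2 for PDE4DIP over the libraries that listed them.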

How the data were processed

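Peaks were taken from the lists that the authors deposited, 1 per immunoprecipitated library. Per the study's methods and the submitters' processing notes, the tools were Trimmomatic 0.39 for trimming, HISAT2 2.1.0 for alignment to hg38 and SAMtools 1.9 for separating the strands, on each of which MACS2 called peaks (extension 150 bases, genome size 130000000, up to 5 duplicates, q under 0.01). The deposited columns hold the fold over the local background (a ratio), -log10 p and -log10 q values and a score, all output of the peak caller used by the authors. Whether input served as background is not given in the sources used here. The lists hold no counts, so differences concern the presence of peaks.

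Genes, transcript starts and exons came from GENCODE release 44 on hg38. Pileup and background at each summit were solved from fold and p-value, which gave the reads per library. The pileup was whole within 0.05 at every summit of 11 libraries and at 9.28 to 10.3% of summits of HepG2 WT 1 and 2 and NB4 Control 3, whose reads appear to be rescaled. Regions were merged peaks of the 14 lists, present in a library by 1 shared base. Libraries were compared by exact permutation tests with Benjamini-Hochberg adjustment over the 4 measures, using scipy 1.17.1, pandas 2.3.3 and numpy 2.4.6 under Python 3.11.15, and the functions were tested on simulated data. Named regions are the top ranks by mean percentile of -log10 q: 6 listed everywhere, 4 per class of cell line, 3 lost and 3 gained per line, all lost or gained in both lines, and the 5 hosts with most regions. The members, lists and tests were chosen with earlier results of these data known. Alternatives covered the promoter window, peak strength, list size, depth, host-strand overlap, nearness to gene ends, region coverage and each library left out.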

Additional observations from a re-analysis of the deposited data

Results flagged for a closer look

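The change of the antisense share upon RBFOX2 KD differed between cell lines. The K562 change minus the NB4 change was 0.75 percentage points (exact permutation p = 0.0167, two-sided, adjusted p = 0.0333), with 2 of 2 K562 KD libraries above the Control mean and 3 of 3 NB4 KD libraries below it. The same contrast for antisense peaks per 100 sense gene-body peaks was 1.79 (exact permutation p = 0.0167, adjusted p = 0.0333). Both measures share their numerator, so they are not independent. Estimated depth and the number of sense peaks moved with the KD in NB4, and their part in the result was not separated.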

How the results depend on the processing

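Over both lines, the KD change of the share was -0.11 points and turned to 0.13 without mirrored peaks and 0.084 without peaks within 10000 bases downstream of a gene end, and the ratio per 100 sense peaks turned from -0.26 to 0.17 and 0.14. The number (log2) turned from 0.082 to -0.078 at equal list sizes and -0.043 when depth was matched at a -log10 p of at least 20, and passed the test at 0.17 without mirrored peaks, 0.15 without peaks past gene ends and 0.11 without NB4 Control 2. Recovery turned to -0.15 at equal list sizes. The difference between lines ran from 0.48 to 1.15 and no longer passed without mirrored peaks (0.56, exact permutation p = 0.05) or with a replicate block that flips signs within same-numbered pairs (0.75, exact permutation p = 0.0625, the smallest possible). Same-numbered libraries did not deviate together (correlations -0.21 to -0.07). With 2 or 3 libraries per group, however, deviations from the group mean are tied to each other, so this cannot tell whether the numbers pair the samples. The block changed no other call.

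Among groups, the differences at equal list sizes were -1.19 (K562 WT against HepG2 WT), 0.17 (K562 Control against WT) and 0.54 (NB4 against K562 Control, 0.19 without mirrored peaks). Lost regions in K562 fell to 22 at equal list sizes, 16 at a -log10 p of at least 20 and 39 without mirrored regions, gained ones to 34 and 53 under the first and second. Gained regions in NB4 fell to 20 and 16. Regions in all libraries fell to 80 at equal list sizes and 33 when 50% of the region had to be covered, those in K562 and NB4 to 25 and 29, those in K562 only to 146 and in NB4 only to 148. The DRACH excess was 5.35 within 50 bases and 4.07 without mirrored peaks.

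Leaving out each library in turn gave -0.19 to -0.03 for the share, 0.056 to 0.11 for the number, -0.44 to -0.10 for the ratio, 0.07 to 2.78 for recovery, 0.58 to 0.89 for the difference between lines, 0.10 to 0.18, -0.12 to 0.075 and -0.31 to -0.0014 for the 3 differences between groups, 92 to 376 lost and 168 to 296 gained regions in K562, and 53 to 80 lost and 104 to 140 gained in NB4. Fewer libraries have to agree in the last 4. Matching at a -log10 p of at least 20 and leaving out mirrored regions were chosen after seeing the data. For the other settings the cause was not tested.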
